A study of Danio rerio with 8 samples.

Results

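Solute carriers are the membrane proteins that move sugars, amino acids, vitamins, nucleosides, ions, metals and drugs into and out of cells and organelles. Each family number groups proteins of related sequence, and most members use a gradient of sodium, protons or the substrate itself rather than ATP. In fish larvae they are prominent in the pronephros, the gut, the liver, the yolk cell layer, the brain and the blood. The members here were the rows of the authors' table of changed genes whose symbol begins with slc and a digit, without slc4a1a, the anion exchanger of red cells. That rule found 17 of the 1293 listed genes, from 11 families. The RefSeq annotation of the assembly GRCz12tu has 436 protein-coding genes with such a symbol, and those outside the table were not analysed here.

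RNA of whole zebrafish embryos at 53 hours post fertilisation was sequenced from 4 pools of iqgap1-/- embryos and 4 pools of wild-type embryos. The mutant pools held embryos with visible hemorrhage, so the genotype and the bleeding cannot be told apart. Each pool is described as 20 embryos in the series' design text and as single larvae in the labels' extraction protocol. The allele, and whether the wild-type embryos were siblings of the mutants, were not given in the sources used here. Iqgap1 is a scaffold protein that ties actin filaments to cell junctions and signalling proteins. Its transcript had 1111, 970.1, 901.8 and 1245 normalized counts in mutant pools 1 to 4, against 2184, 2118, 2211 and 2114 in wild-type pools 1 to 4.

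Every listed gene had been chosen by the authors for a difference between these same pools, with an adjusted p of 0.04997 or lower and a change of at least 1.5-fold. The counts and p-values below therefore describe chosen genes and are not independent evidence that they differ. A normalized count is an expected read count divided by a size factor of its pool, with the scale between the groups set to that of the authors' fold changes. A gene was called when edgeR's quasi-likelihood test gave an adjusted p under 0.05 over the 26889 genes that the authors had adjusted over. Per pool, the listed genes held between 354272 and 552331 expected counts in all; the full depth was not used here. In whole embryos, fewer cells of a type and less RNA per cell cannot be told apart.

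Transporters of carnitine, sugar, nucleosides and organic cations had the most lowered transcripts among the members. By symbol, the nucleoside and organic cation families also held the largest deposited rises of members, slc47a2.2 (log2 fold change 3.97, not tested) and slc29a1b (1.32, not called). The identity of the slc47a2.2 row is uncertain, as described further on, so its place in a family is too. A mitochondrial iron importer and an organic anion transporter were among the other members with raised transcripts. The authors' deposited table has 6 members higher and 11 lower in mutants; of all its genes 58.9% were higher and 41.1% lower. The median deposited log2 fold change was -0.64 over the members and 0.72 over all listed genes. The count filter left 16 of the 17 members for testing, and the test called 9 of them, against 66.8% of all 1126 tested genes. It called 3 members higher, among them slc25a37 and slc22a7a, where it called 37.5% of the tested genes higher. It called 6 lower (slc22a5, slc5a9, slc47a1, slc29a2, slc16a9a and slc23a3), where it called 29.3% of the tested genes lower. The mutant and wild-type pools did not overlap for 14 members, against 89.5% of all listed genes. Of these, 4 were higher and 10 lower, against 51.4% and 38.1% of the listed genes. Since the rows were chosen on this same contrast, nothing is read from these shares.

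**Figure D1:**
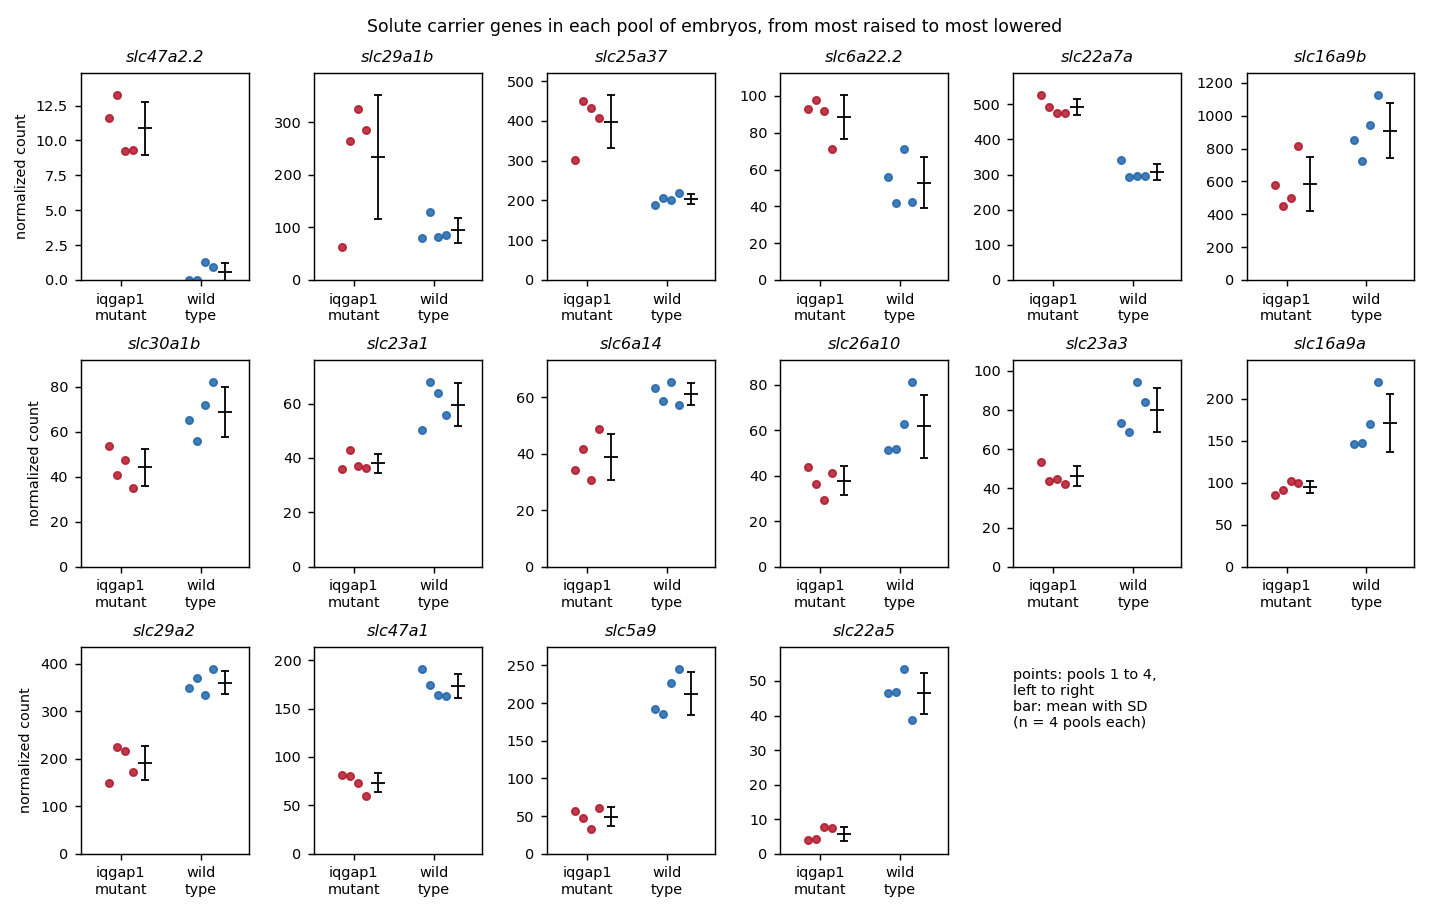
Normalized count of 16 of the 17 solute carrier genes in each pool. Red points are the 4 iqgap1 mutant pools, blue points the 4 wild-type pools, and the bar gives the mean with its SD; each panel has its own axis from 0. The groups overlap for slc29a1b, slc6a22.2 and slc16a9b.

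Carnitine carries long-chain fatty acids into mitochondria, and slc22a5 encodes its high-affinity, sodium-coupled importer. Slc22a5 had 3.91, 4.16, 7.67 and 7.42 normalized counts in mutant pools 1 to 4, against 46.6, 46.9, 53.4 and 38.7 in wild-type pools 1 to 4. Every mutant pool was far below every wild-type pool. This 8.01-fold lower level was the strongest fall among the tested members, with -3.00 ± 0.27 (SE) as its log2 fold change (edgeR quasi-likelihood test, adjusted p = 0.000217). It rests on few reads in the mutants, with expected counts of 4, 4, 6 and 7 before scaling.

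The family of monocarboxylate transporters contributed both zebrafish copies of slc16a9, whose human counterpart MCT9 has been linked to carnitine efflux. Slc16a9a had 85.9, 91.6, 102 and 99.6 normalized counts in mutant pools 1 to 4, against 146, 147, 170 and 219 in wild-type pools 1 to 4. It fell by 0.85 on the log2 scale (SE 0.16; edgeR quasi-likelihood test, adjusted p = 0.0127), with no overlap between the groups. Without mutant pool 2 it was not called (adjusted p = 0.0539; range over all alternatives 0.00059 to 0.0539). Slc16a9b had 578, 448, 498 and 816 normalized counts in mutant pools 1 to 4, against 850, 722, 943 and 1124 in wild-type pools 1 to 4. Mutant pool 4 lay above wild-type pool 2, so the groups overlapped, and the log2 fold change of -0.64 ± 0.20 (SE) was not called (edgeR adjusted p = 0.207). Without mutant pool 4 it was -0.84 and called (adjusted p = 0.0356; range over all alternatives 0.0121 to 0.676).

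Slc5a9 encodes SGLT4, a sodium-coupled transporter that in mammals takes up mannose, glucose and fructose. It had 56.6, 46.8, 33.3 and 60.4 normalized counts in mutant pools 1 to 4, against 193, 185, 227 and 245 in wild-type pools 1 to 4. The highest mutant pool was thus below the lowest wild-type pool by a wide margin. The edgeR fit gave a 4.28-fold lower level (log2 fold change -2.10 ± 0.18 SE, quasi-likelihood test, adjusted p = 0.000205). No other member of its family is in the table.

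The 2 listed multidrug and toxin extrusion proteins, which exchange organic cations for protons, lay on opposite sides. Slc47a1 had 81.0, 80.1, 72.9 and 59.3 normalized counts in mutant pools 1 to 4, against 191, 175, 165 and 163 in wild-type pools 1 to 4. It fell by 1.24 on the log2 scale (SE 0.14; edgeR quasi-likelihood test, adjusted p = 0.000713). Slc47a2.2 had 11.6, 13.2, 9.26 and 9.34 normalized counts in mutant pools 1 to 4, against 0, 0, 1.30 and 0.92 in wild-type pools 1 to 4. All mutant pools were above all wild-type pools, but the gene did not pass the count filter. Rounded counts summed to 41 in the mutants and 3 in wild type, a depth-scaled ratio of 15.99 with an exact 95% interval of 5.10 to 80.7 that covers counting error only. The authors' deposited table gives it a log2 fold change of 3.97 and an adjusted p of 3.82e-09. In GRCz12tu slc47a1, slc47a2.1 and slc47a2.2 are consecutive protein-coding genes, and slc47a2.1 is not in the table. The table of gene names used here gives the symbol herc56.3 to the Ensembl identifier of the slc47a2.2 row, the only member whose identifier did not carry its name up to case and copy letter, so the identity of this row is uncertain.

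Slc22a7a encodes an organic anion transporter of the OAT2 type, which in mammals is a liver and kidney protein. It had 525, 492, 476 and 475 normalized counts in mutant pools 1 to 4, against 341, 293, 296 and 295 in wild-type pools 1 to 4. The groups did not overlap. Wild-type pool 1 stood above the other wild-type pools, which lay close together. It rose 1.61-fold (log2 fold change 0.68 ± 0.10 SE; edgeR quasi-likelihood test, adjusted p = 0.00382). Its call depends on the scale between the groups, described further on: it was lost with RLE (log2 fold change 0.18, edgeR adjusted p = 1) and with TMM (0.31, adjusted p = 0.985), the range over all alternatives being 5.89e-07 to 1. Of 10 liver markers 2 are in the table, with fabp10a at 20.3 ± 4.67 normalized counts in mutants and 8.49 ± 4.32 in wild type (SD, n = 4 each; not called) and cp lower and called. The summed level of these 2 listed markers ran from 2071 to 2293 in mutants and from 2960 to 3681 in wild type, and neither was at 0. Nearly all of that sum was cp, at 2141 ± 97.4 normalized counts in mutants and 3409 ± 334 in wild type (SD). The 2 markers went opposite ways. Their part in the slc22a7a result was not tested.

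Equilibrative nucleoside transporters let nucleosides such as adenosine and uridine cross membranes down their gradient. Slc29a2, the ENT2 gene, had 149, 226, 216 and 173 normalized counts in mutant pools 1 to 4, against 348, 371, 334 and 389 in wild-type pools 1 to 4. It fell 1.89-fold (log2 fold change -0.92 ± 0.14 SE; edgeR quasi-likelihood test, adjusted p = 0.00494), with no overlap between the groups. Slc29a1b, a copy of the ENT1 gene, had 62.5, 264, 325 and 285 normalized counts in mutant pools 1 to 4, against 79.1, 130, 82.2 and 85.7 in wild-type pools 1 to 4. Mutant pools 2 to 4 were above every wild-type pool, and mutant pool 1 was below every wild-type pool. With all pools its log2 fold change of 1.31 ± 0.40 (SE) was not called (edgeR adjusted p = 0.194). Without mutant pool 1 it was 1.63 and called (adjusted p = 0.000781; range over all alternatives 0.000781 to 1).

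Within a pool, the ratio of 2 genes' counts does not depend on any scale between pools. These ratios were computed for the families with 2 listed members, after the members' values were seen, and are given with no test. Where a raised member was set over a lowered one, both had been chosen on this contrast, so a separation of the groups is no independent evidence. The expected count of slc29a1b per count of slc29a2 was 0.418 to 1.65 in mutants and 0.22 to 0.35 in wild type. The ratio of mutant pool 1 lay above the wild-type pools because slc29a2 was at its lowest there (149 normalized counts). Slc29a1b itself was below every wild-type pool in it (62.5 normalized counts). Slc47a2.2 per slc47a1 was 0.127 to 0.165 in mutants and 0 to 0.00789 in wild type. Since the identity of the slc47a2.2 row is uncertain, this may not be a ratio within a family. Slc22a7a per slc22a5 was 62 to 134.5 in mutants, on 4 to 7 counts of slc22a5, and 5.54 to 7.62 in wild type. Slc16a9a per slc16a9b was 0.122 to 0.206 in mutants and 0.172 to 0.203 in wild type, which overlap. Gene length was not corrected for, so a ratio is read between pools and not as one gene's level against the other's.

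**Figure D2:**
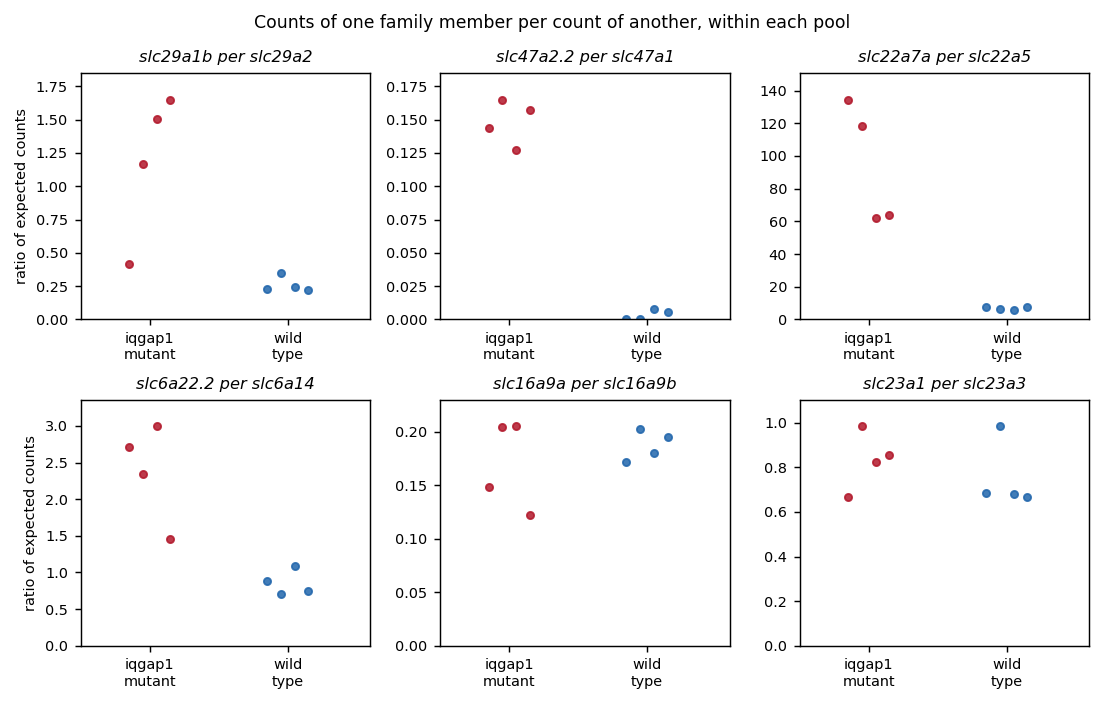
Ratio of expected counts of 2 members of the same family within each pool, for the 6 families with 2 listed members; red points are the 4 mutant pools and blue points the 4 wild-type pools, each axis from 0. In the panels of families 29, 47, 22 and 6 the mutant pools lie above the wild-type pools. In those of slc16a9 and slc23 they overlap. Families are by symbol, and the identity of the slc47a2.2 row is uncertain.

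Both listed members of family 23 had lower means in the mutants, and 1 was called. Slc23a1 encodes a sodium-dependent importer of ascorbate, and slc23a3 a relative in the same family. Slc23a3 had 53.7, 43.7, 44.8 and 42.4 normalized counts in mutant pools 1 to 4, against 73.6, 68.8, 94.2 and 83.9 in wild-type pools 1 to 4. The groups did not overlap, and it fell by 0.79 on the log2 scale (SE 0.17; edgeR quasi-likelihood test, adjusted p = 0.0262). Its call was lost without mutant pool 2 (edgeR adjusted p = 0.0989), mutant pool 3 (0.0886), mutant pool 4 (0.0951), wild-type pool 3 (0.0852) or wild-type pool 4 (0.0836), with a range over all alternatives of 0.0021 to 0.113. Slc23a1 had 35.9, 43.1, 36.9 and 36.2 normalized counts in mutant pools 1 to 4, against 50.4, 67.8, 63.9 and 55.97 in wild-type pools 1 to 4. Its groups did not overlap either, yet its log2 fold change of -0.64 ± 0.17 (SE) was not called (edgeR adjusted p = 0.0959). Slc23a1 per slc23a3 was 0.668, 0.985, 0.825 and 0.855 in mutant pools 1 to 4, against 0.685, 0.986, 0.679 and 0.667 in wild-type pools 1 to 4. The ranges were nearly the same, but wild-type pool 2 alone set the top of the wild-type range.

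Family 6 holds sodium- and chloride-coupled transporters of neurotransmitters, creatine and amino acids, and neither of its listed members was called. Slc6a14 encodes a transporter of neutral and cationic amino acids. It had 34.2, 41.6, 30.7 and 48.7 normalized counts in mutant pools 1 to 4, against 63.3, 58.8, 65.3 and 57.1 in wild-type pools 1 to 4. All mutant pools were below all wild-type pools (log2 fold change -0.65 ± 0.18 SE; edgeR adjusted p = 0.132). Slc6a22.2 had 92.8, 97.8, 92.1 and 71.0 normalized counts in mutant pools 1 to 4, against 55.9, 41.9, 71.3 and 42.4 in wild-type pools 1 to 4. Mutant pool 4 and wild-type pool 3 met, and the log2 fold change of 0.74 ± 0.20 (SE) was not called (edgeR adjusted p = 0.114). Without wild-type pool 3 it was 0.92 and called (adjusted p = 0.0376; range over all alternatives 0.0376 to 1). Slc6a22.1, the neighbouring copy in GRCz12tu, is not in the table. Slc6a22.2 per slc6a14 was 1.46 to 3.00 in mutants and 0.712 to 1.09 in wild type.

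The anion and metal transporters were single members of their families. Slc26a10, of a family of anion exchangers, averaged 37.8 ± 6.38 normalized counts in mutants and 61.7 ± 14.0 in wild type (SD, n = 4 each; log2 fold change -0.70, edgeR adjusted p = 0.179). Slc30a1b, a copy of the zinc exporter gene ZnT1, averaged 44.1 ± 8.13 normalized counts in mutants and 68.8 ± 11.1 in wild type (SD, n = 4 each; log2 fold change -0.64, edgeR adjusted p = 0.179). For neither of these did the groups overlap, and neither was called.

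Slc25a37, or mitoferrin 1, imports iron into mitochondria for heme synthesis, and zebrafish frascati mutants of this gene are anemic. It had 301, 449, 432 and 408 normalized counts in mutant pools 1 to 4, against 188, 205, 201 and 219 in wild-type pools 1 to 4. The lowest mutant pool, pool 1, was still above the highest wild-type pool. It rose 1.95-fold (log2 fold change 0.96 ± 0.14 SE; edgeR quasi-likelihood test, adjusted p = 0.00297). With RLE size factors the log2 fold change was 0.44 and not called (edgeR adjusted p = 0.228; range over all alternatives 6.3e-07 to 0.228). Other red cell genes were higher in the same pools. Of 13 erythrocyte markers 12 are in the table, all 12 are higher there, and 11 were called. Of all listed genes 58.9% were higher, and of the tested genes 37.5% were called higher. These rows too were chosen on this contrast, and the list with earlier results of these data known. Their summed level ran from 100872 to 131907 normalized counts in mutants and from 28733 to 46864 in wild type, with no listed marker at 0. The heme synthesis enzyme alas2 averaged 1973 ± 239 normalized counts in mutants and 704 ± 129 in wild type, and slc4a1a, which the rule leaves out, averaged 4652 ± 709 in mutants and 1503 ± 340 in wild type (SD, n = 4 each). The part of red cell number in the slc25a37 result was not tested.

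**Figure D3:**
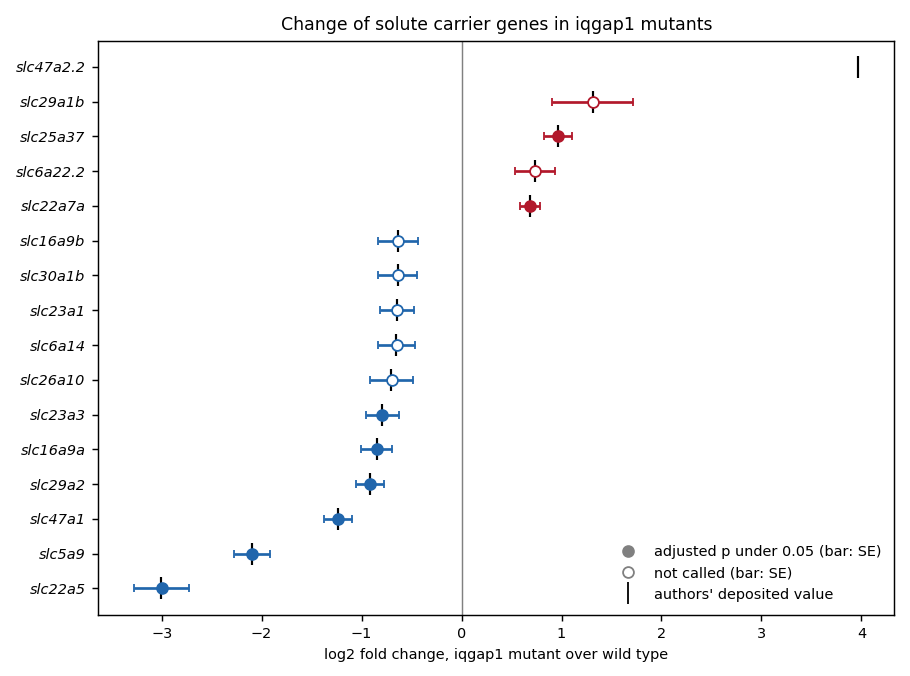
Log2 fold change of 16 of the 17 solute carrier genes, iqgap1 mutant over wild type, with its standard error; filled points passed an adjusted p under 0.05 in edgeR's quasi-likelihood test and ticks give the authors' deposited value. Slc22a5 (-3.00) and slc5a9 (-2.10) are the farthest below 0; slc47a2.2 has only the deposited value, since the count filter removed it.

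All members lie past the authors' thresholds by construction, and 7 of the 16 tested members did not pass the edgeR test. Those nearest to the fold threshold in the authors' deposited table were slc16a9b, slc30a1b and slc23a1, each with a log2 fold change of -0.64, where the smallest absolute value in the table is 0.5856. The highest deposited adjusted p of a member was 0.0352, for slc30a1b. Variation between pools was similar in both groups, with a median coefficient of variation over the 17 members of 16.9% in mutants and 13.3% in wild type. The expected counts were whole in every pool for 13 members. For the other 4, among them slc47a2.2, slc29a1b and slc23a1, they were fractional in 4 or more pools, as RSEM writes them where reads fit several genes. Of all listed genes 54.6% had a fractional expected count in some pool.

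The scale between the groups changed calls of members, but no direction. Size factors from the median of ratios (RLE) over the listed genes shift every log2 fold change by -0.52, and TMM factors shift it by -0.38. Both shifts are smaller than 0.5856, the smallest absolute log2 fold change in the authors' table. A change of direction was thus all but excluded in advance, and nothing is read from its absence. Under RLE the log2 fold change was 0.44 for slc25a37 and 0.18 for slc22a7a, both still above 0, and the edgeR test called no member higher, with 2 higher at an unadjusted p under 0.05. DESeq2 on the main scale called 5 higher, slc29a1b and slc47a2.2 in addition to the 3 (adjusted p = 0.0374 and 0.00235). All 11 members below 0 were called under both RLE and TMM, while the listed genes called lower numbered 465 under RLE and 451 under TMM, in place of 330. Slc22a5, slc5a9, slc47a1 and slc29a2 were called lower under all 13 alternatives. Both scalings moved every log2 fold change down, which favours calls of lowered members and works against calls of raised ones. No alternative moved the scale up, so lowered members were not put to the same trial as raised ones.

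**Figure D4:**
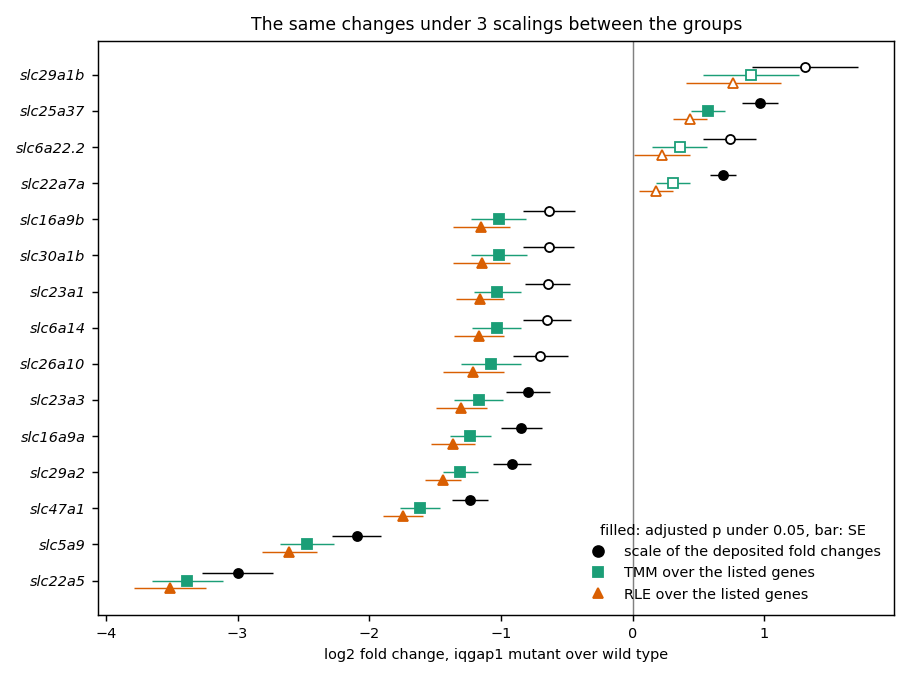
Log2 fold change of 15 of the 16 tested members, iqgap1 mutant over wild type, with standard errors, under the scale of the deposited fold changes (circles), TMM (squares) and RLE (triangles) over the listed genes; filled symbols passed an adjusted p under 0.05 in edgeR. Every member shown keeps its sign, which was all but fixed in advance, since both shifts are smaller than the authors' fold threshold. Those above 0 lie nearer to it under TMM and RLE.

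Rows outside the rule that carry the name of a solute carrier were listed too. The row named SLC45A4 (1 of many), of a family of proton-coupled sugar transporters, had 45.9 to 65.7 normalized counts in mutants and 20.4 to 31.9 in wild type (log2 fold change 0.98, edgeR adjusted p = 0.0354). The row named oct2, whose Ensembl identifier has the symbol slc22a3 in the table of gene names, had 9.76 to 24.3 normalized counts in mutants and 46.7 to 61.8 in wild type (log2 fold change -1.68, edgeR adjusted p = 0.00841).

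Other transport genes were chosen by symbol (ABC proteins, sodium, calcium and proton pumps, aquaporins, and the transporter partners basigin and embigin). Of 124 such genes in GRCz12tu 5 are listed, where 1293 of the 26889 genes that the authors adjusted over are. The 4 that passed the count filter were all called higher, where 37.5% of all 1126 tested genes were, and aqp10b was not tested. These rows too were chosen on this contrast, so nothing is read from the count. The water channel gene aqp12 averaged 538 ± 63.6 normalized counts in mutants and 251 ± 32.3 in wild type (SD, n = 4 each; edgeR adjusted p = 0.00105). The ABC transporter gene abcb5 averaged 2071 ± 167 normalized counts in mutants and 1210 ± 174 in wild type (log2 fold change 0.78, adjusted p = 0.00684). Abcb11b, the bile salt export pump, averaged 34.4 ± 5.50 normalized counts in mutants and 14.5 ± 4.49 in wild type (adjusted p = 0.0248). Abcf2b, an ABC protein without membrane domains, had a log2 fold change of 1.04. Aqp10b, an aquaglyceroporin gene, had 0 to 2.12 normalized counts in mutants and 1.99 to 16.6 in wild type.

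Markers of organs in which solute carriers are prominent, and of other cell types, were looked up in the table. Of 10 pronephros markers, 10 gut and yolk markers and 11 ionocyte markers 0 are listed. Of the 26889 genes that the authors adjusted over only 1293 are listed, so nothing is read from this. Of 11 neuron markers 1 is listed, the catecholamine synthesis gene th, which was called lower, with 69.1 to 90.8 normalized counts in mutants and 106 to 145 in wild type; of 7 glia markers 0 are listed. Of 9 macrophage markers 7 are listed, all lower in the authors' table, while mfap4 and csf1ra are not listed. The test called 5 of them lower, where it called 29.3% of all tested genes lower. The summed level of the listed ones was 251 to 298 normalized counts in mutants and 491 to 631 in wild type, none being at 0. The list was chosen with earlier results of these data known, so nothing is read from the count. The melanophore marker oca2 was called lower, and the xanthophore marker aox5 was called higher. The photoreceptor marker rho was higher in the authors' table and not called. The part of these markers' cells in the changed solute carriers was not tested.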

How the data were processed

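RNA of 8 pools of whole zebrafish embryos was sequenced after depletion of ribosomal RNA, per the labels' protocols. Trimmomatic, STAR 2.7, RSEM and danRer11 are named in the submitters' processing notes; settings, annotation and strand were not given in the sources used here. Per the file headers, the table has the authors' log2 fold change, fold as a ratio, p-value and adjusted p-value, and 1 value per pool. The deposited pool values are RSEM expected counts, each multiplied by 1 of 8 factors (0.9784 to 1.0252) that ran over the columns in a cyclic order starting anew in each row. Division by them made all 10152 nonzero values multiples of 0.01.

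The counts were rounded and fitted with edgeR 4.0.16 (R 4.3.3; filterByExpr at a count of 10 and a total of 15, then glmQLFit and glmQLFTest). Size factors within groups came from the median of ratios, with 1 log2 offset between groups (-0.236) set on 648 genes with a mean of 50 or more so that the median difference from the deposited log2 fold changes was 0. Adjustment followed Benjamini and Hochberg over 26889 genes, with a p of 1 for each gene not in the table. The steps were tested on simulated data, with outcomes not given here. In the simulated fit the scale between groups was set from the true fold changes, so the choice of scale was not tested. Alternatives were RLE and TMM scaling, no filter, DESeq2 1.42.0, a replicate block, each pool left out and a threshold of 0.01. Nothing in the labels says that the pools of a group came from separate crosses, so p-values measure the spread between these pools only.

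The members and lists were chosen with earlier results of these data known. Of the members, 1 is counted but not reported here by name or value, and the others are all named. Values for each pool are given for called members with a mean of 50 or more counts (up to 8 in each direction), for families with 2 or more members and for members whose call changed when a pool was left out; others are given by group means. Slc22a5, with a mean of 26.1 counts, qualifies through its family. Gene names and neighbours come from the RefSeq annotation of GRCz12tu, in which all 17 symbols were found; its coordinates are not given because the build differs. No sequences are printed.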

Additional observations from a re-analysis of the deposited data

Results flagged for a closer look

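Dixon's test compared the extreme normalized counts of each member with the remaining pools of the same group. Of 34 such sets of 4 pools, 3 had a pool that stood apart, where chance gives about 1.7. Slc23a1 was highest in mutant pool 2, with 43.1 normalized counts against 35.9 to 36.9 in the other mutant pools. Slc29a1b was highest in wild-type pool 2, with 130 normalized counts against 79.1 to 85.7 in the other wild-type pools. Slc22a7a was highest in wild-type pool 1, with 341 normalized counts against 293 to 296.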

How the results depend on the processing

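Over the 16 tested members and 13 alternatives, 0 of 208 log2 fold changes changed sign, 11 calls were lost and 15 gained. The RLE and TMM shifts were smaller than any deposited change of a listed gene, so they could hardly have reversed a sign. RLE size factors gave 0 members called higher and 11 lower by edgeR (2 higher at an unadjusted p under 0.05), and TMM gave 2 higher and 11 lower, in place of 3 and 6. Over all listed genes RLE gave 113 higher and 465 lower and TMM 162 higher and 451 lower, in place of 422 and 330. Both scalings rest on genes chosen for a difference, so which scale is right was not tested. DESeq2 called 5 members higher, since it was run without the count filter that removed slc47a2.2 and also called slc29a1b. At an adjusted p under 0.01, 248 listed genes were higher and 185 lower. Leaving out each pool gave 3 to 4 members higher and 4 to 6 lower. Reading the symbols without regard to case, an alternative chosen after seeing the data, adds SLC45A4 (1 of many) and gives 4 higher.

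Same-numbered pools showed little shared deviation, with correlations from -0.24 to 0.11 over 654 genes, where 0.1 had been set as needed. The pools numbered 2 passed that level. Such correlations cannot exclude shared crosses or batches, so whether the numbers pair the pools was not settled. With a replicate block 3 members were higher and 6 lower; slc23a3 lost its call and slc16a9b gained one. Low counts limit slc22a5 and slc47a2.2.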

Other observations

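Placed by symbol, 5 of the 17 members lie on the same chromosome in GRCz12tu, namely slc47a1, slc47a2.2, slc29a2, slc22a5 and slc23a1. The place of slc47a2.2 is uncertain, as is the identity of its row. That chromosome holds 22 of the 436 RefSeq genes with such symbols (5.05%) and 39 of the 790 listed genes with a place there (4.94%). This was noticed after the values were seen and was not tested. Slc47a2.2 is higher in the mutants and the other 4 are lower. No member lies on the chromosome of iqgap1, which holds 30 of the 436 genes and 41 of the 790 listed genes with a place. With so few members nothing is read from this.

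Slc29a2 is followed in GRCz12tu by the complement gene cfb, the only protein-coding gene next to a member whose symbol is itself listed. Only 790 of the listed genes could be placed by symbol, so a neighbour listed under another name would be missed. Of the 26889 genes that the authors adjusted over 1293 are listed, and a link between slc29a2 and cfb was not tested. Cfb averaged 1180 ± 85.3 normalized counts in mutants and 1834 ± 194 in wild type (SD, n = 4 each; log2 fold change -0.64, edgeR adjusted p = 0.011).

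Among all listed genes there were 80 in which mutant pool 1 alone of the mutants lay in the wild-type range while the other mutant pools all lay beyond it on the same side. The corresponding numbers were 12 for mutant pool 2, 8 for mutant pool 3 and 24 for mutant pool 4. For wild-type pools 1 to 4 in the mutant range they were 16, 40, 18 and 18. None of the members was among the 80. Slc29a1b was not counted there because its mutant pool 1 was below the wild-type range and not within it.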
